A study of Mus musculus with 10 samples.

Results

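Pmp2 and 8 related carrier genes were followed in the retinas of 10 mice, as 9 of the 57010 genes in the count table. The 9 genes are Pmp2, Fabp3, Fabp4, Fabp5, Fabp7, Fabp12, Crabp1, Crabp2 and Rbp4. They were listed by symbol as fatty-acid or retinoid binding proteins. Pmp2 was chosen by its measured rise in AAV206-GFP over AAV2-GFP libraries of these same data. Its group difference is therefore given as a description, without a test. Of the 9 genes, 8 passed the filter on low counts, and Rbp4 did not.

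All mice were 6 to 8 weeks old and were injected into the vitreous with a vector derived from adeno-associated virus (AAV) that encoded the reporter GFP, green fluorescent protein. In 5 mice the vector was AAV2-GFP and in 5 mice it was AAV206-GFP, and retinas were taken 14 days later. Both groups carried vector and reporter, so every difference is between the 2 vector groups and none is from an uninjected retina. Anything else that differed between the 2 sets of mice cannot be told apart from the vector. The strain, the sex and the promoter driving GFP are not given in the sources used here.

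Fatty-acid binding proteins and their retinoid-binding relatives are small cytosolic proteins that fold into a barrel around 1 lipid molecule and carry it through the watery cell interior. Different members deliver fatty acids to membranes, to mitochondria or to PPAR nuclear receptors, and retinoic acid to its receptors or to the CYP26 enzymes that break it down. The retina is rich in polyunsaturated fatty acids and depends on vitamin A derivatives for vision. Rbp4 differs from the other listed genes: it encodes a secreted carrier of retinol from the lipocalin family.

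CPM stands for counts divided by the library size, adjusted by trimmed mean of M values (TMM) factors, and brought to one common total. A gene is called where its Benjamini-Hochberg adjusted p over all 15539 tested genes is under 0.05 in edgeR's quasi-likelihood test. The 7 rod photoreceptor markers summed to between 52450 and 61880 CPM in all 10 libraries, which are labelled as retina. Library totals were 10989843 to 12752604 counts. One AAV2-GFP library, replicate 1, stood apart by its summed macrophage and microglia markers, at 270 CPM against 19.1 to 50.3 CPM in the other 9. Among the members, Fabp4, Fabp7 and Fabp12 were highest in this library within the AAV2-GFP group.

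Pmp2 and Fabp4 are neighbours on chromosome 3 and are close in sequence. In GENCODE M21 (GRCm38), Pmp2 (ENSMUSG00000052468) lies at chr3:10179851-10183929 and Fabp4 (ENSMUSG00000062515) at chr3:10204088-10208576, both on the minus strand with 20158 bases between them. Their coding sequences are shown because these were the 2 members that differed between the groups and because similar genes can exchange reads. Both are spliced from 4 exons into 399 coding bases, spanning chr3:10180750-10183819 and chr3:10204520-10208511. The first 300 coding bases are written 5′ to 3′ from the start codon, and capitals mark the bases that differ between them in a global alignment.
Pmp2: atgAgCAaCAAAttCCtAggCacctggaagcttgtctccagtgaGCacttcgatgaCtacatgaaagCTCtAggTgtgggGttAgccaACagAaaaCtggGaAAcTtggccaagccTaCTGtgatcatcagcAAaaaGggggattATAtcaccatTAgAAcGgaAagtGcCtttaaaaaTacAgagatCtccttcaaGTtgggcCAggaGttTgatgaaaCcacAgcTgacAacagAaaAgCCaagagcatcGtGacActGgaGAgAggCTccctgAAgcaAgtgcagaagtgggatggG
Fabp4: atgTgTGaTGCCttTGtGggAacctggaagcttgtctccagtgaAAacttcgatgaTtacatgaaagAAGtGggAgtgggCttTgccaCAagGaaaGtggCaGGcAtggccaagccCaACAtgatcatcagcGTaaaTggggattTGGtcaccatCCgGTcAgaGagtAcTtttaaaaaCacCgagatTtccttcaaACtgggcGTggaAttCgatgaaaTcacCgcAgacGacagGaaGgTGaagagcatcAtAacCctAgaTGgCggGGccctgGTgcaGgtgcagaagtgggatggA

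The full coding sequences of the pair were identical at 285 of 399 aligned positions (71.4%). This was the closest pair among the 4 members of the chromosome 3 cluster whose coding sequences were compared: Pmp2 was 67.9% identical to Fabp12 and 60.6% to Fabp5, and Fabp4 was 63.4% and 59.6% identical to them. The longest run of bases that Pmp2 and Fabp4 shared was 23, well under the read length of 150 bases. Over windows of 50 bases, no window of the annotated Fabp4 transcripts occurred in a transcript of another gene. For Pmp2, 86.7% of the windows also occurred in Gm37389, an annotated protein-coding gene on the same strand that overlaps both Pmp2 and Fabp9. Gm37389 had 0 counts in 9 libraries and 4.23 in AAV206-GFP replicate 4, the single library in which the Pmp2 count carried decimals. Reads from Pmp2 and from Gm37389 can therefore not be told apart over most of the gene, whereas Pmp2 and Fabp4 shared no window.

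Pmp2 encodes peripheral myelin protein P2, a fatty-acid binding protein known from Schwann cell myelin. In AAV2-GFP retinas its level was low, at 0.995, 0.719, 1.24, 1.53 and 2.22 CPM in replicates 1 to 5, or 11, 8, 16, 19 and 26 counts. In AAV206-GFP retinas it was at 12.7, 10.4, 7.33, 7.89 and 4.41 CPM, or 151, 114, 85, 87.77 and 52 counts. The lowest AAV206-GFP retina was thus above the highest AAV2-GFP retina. The log2 fold change was 2.66 with an SE of 0.31, the fifth largest rise among the 15539 tested genes. It lay between 2.47 and 2.91 when each library was left out in turn. As Pmp2 was chosen by this rise, the rank and the range only describe it. In bulk tissue, more cells of a type and more RNA per cell cannot be told apart.

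Fabp4, the carrier best known from adipocytes, macrophages and the endothelium of small vessels, rose 4.08-fold with AAV206-GFP. Its level was 10.9, 7.91, 8.51, 10.2 and 5.64 CPM in AAV2-GFP replicates 1 to 5. In AAV206-GFP replicates 1 to 5 it was 57.5, 32.02, 30.9, 30.9 and 25.2 CPM. The groups did not overlap, and AAV206-GFP replicate 1 lay far above the other 4 retinas of its group. The log2 fold change was 2.03 with an SE of 0.21 (edgeR adjusted p = 2.54e-05). Without AAV206-GFP replicate 1 the log2 fold change was 1.78, and Fabp4 passed the threshold in each of the 18 alternative fits.

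Of the 8 members besides Pmp2, Fabp4 was the 1 called, as higher, and 0 were called lower by edgeR. Fabp4 was also the 1 member of these with an unadjusted p under the threshold, and the 1 called by DESeq2. Across all tested genes 11.2% passed, 5.95% as higher and 5.3% as lower, and the groups did not overlap in 9.78%.

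**Figure D1:**
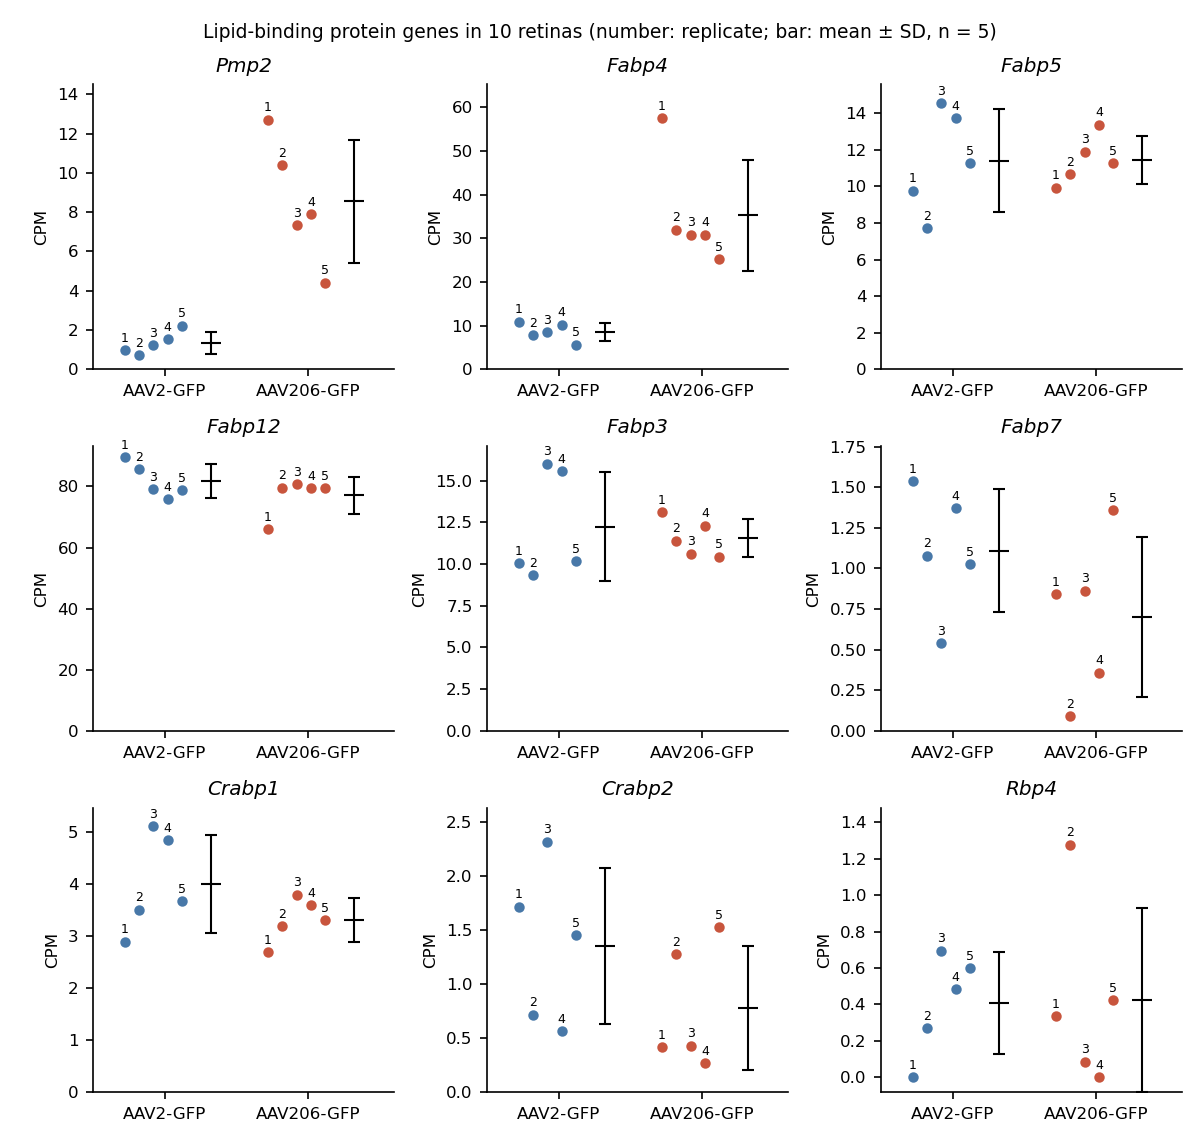
Level of each of the 9 genes in CPM (vertical axis, from 0 or just below) in each of the 5 AAV2-GFP and 5 AAV206-GFP retinas; points carry the replicate number, and the bar beside them is the mean with SD. The AAV206-GFP points lie above all AAV2-GFP points for Pmp2 (4.41 CPM or more against 2.22 or less) and Fabp4 (25.2 or more against 10.9 or less) and overlap them in the other 7 panels.

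The other fatty-acid binding proteins of the same cluster did not pass the threshold. Fabp5, a broadly expressed carrier first known from skin, was at 9.77, 7.73, 14.5, 13.7 and 11.3 CPM in AAV2-GFP retinas, against 9.93, 10.7, 11.9, 13.4 and 11.3 CPM in AAV206-GFP retinas. The group means were 11.4 ± 2.80 and 11.4 ± 1.31 CPM (SD, n = 5), and the 95% interval of the log2 fold change ran from -0.34 to 0.34 (edgeR adjusted p = 0.9985). Fabp12, at the far end of the cluster, was at 89.7, 85.6, 79.1, 75.7 and 78.8 CPM in AAV2-GFP retinas, against 66.0, 79.6, 80.8, 79.4 and 79.4 CPM in AAV206-GFP retinas. Its log2 fold change of -0.09 had a 95% interval of -0.24 to 0.06 (edgeR adjusted p = 0.451). The AAV206-GFP value of Fabp12 was lowered by replicate 1, at 66.0 CPM against 79.4 to 80.8 CPM in the other 4, which is the same retina that was highest for Pmp2 and Fabp4. Fabp9, a testis carrier that lies between Pmp2 and Fabp4 on the chromosome, had 0 counts in all AAV2-GFP libraries. With AAV206-GFP it had 3, 0, 0, 0 and 5 counts, too few to test.

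The cluster spans 288.6 kb from Fabp5 to Fabp12. Within 500 kb of the Pmp2 start site 25 annotated genes were in the count table and 12 were tested. Besides Pmp2, 1 of these was called higher, Fabp4, and 1 lower, Snx16. The start site of Fabp4 lies 24.6 kb from that of Pmp2. The next tested gene on that side, 4632432E15Rik at 39.5 kb, differed by 0.12 on the log2 scale, with a 95% interval of -0.10 to 0.35. On the other side the nearest, Gm9833 at -95.8 kb, had -0.25 with an interval of -0.65 to 0.14. Snx16, a sorting nexin of endosomes 256.2 kb away, fell from 20.5 ± 1.94 to 15.6 ± 1.15 CPM (mean ± SD, n = 5). The difference on the log2 scale was -0.40 with an SE of 0.10 (edgeR adjusted p = 0.0169). Without AAV2-GFP replicate 4, Snx16 no longer passed (edgeR adjusted p = 0.0524). Of the 12 listed genes around the cluster 10 were tested, and 2 were called lower and 0 higher, against 5.3% lower and 5.95% higher over all genes (3 had an unadjusted edgeR p under the threshold, and DESeq2 called the same 2). The second was Tpd52, which lies outside the 500 kb window (log2 fold change -0.19, SE 0.06, edgeR adjusted p = 0.0435) and lost its call in 8 of the 10 fits without 1 library.

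**Figure D2:**
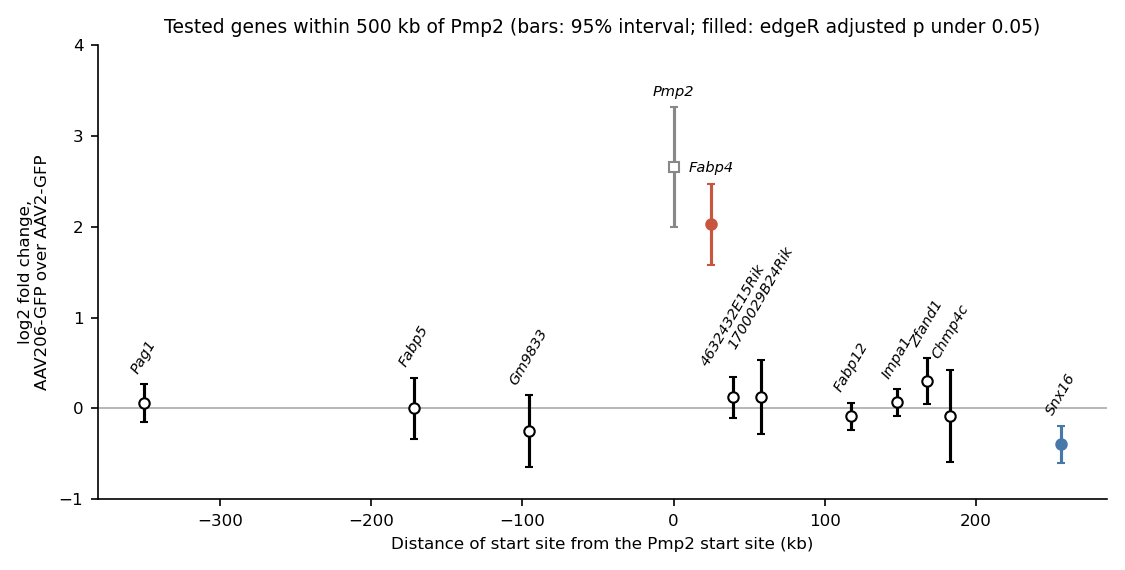
Log2 fold change of AAV206-GFP over AAV2-GFP (vertical axis) for the 12 tested genes within 500 kb of the Pmp2 start site, by distance between start sites in kb (horizontal axis). Bars are 95% intervals, and filled points passed the threshold. Pmp2, chosen by its rise, is an open grey square: its interval is a description and its test result is not given. Pmp2 at 2.66 and Fabp4 at 2.03 stand above the other genes shown, which lie between -0.40 and 0.30.

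The members outside the cluster did not pass either. Fabp3, the heart and muscle form, was at 10.04, 9.34, 16.0, 15.6 and 10.2 CPM in AAV2-GFP retinas, against 13.1, 11.4, 10.6, 12.3 and 10.4 CPM in AAV206-GFP retinas. Its log2 fold change was -0.08 with a 95% interval of -0.43 to 0.26 (edgeR adjusted p = 0.774). Within AAV2-GFP, replicates 3 and 4 were the 2 highest retinas for Fabp3, for Fabp5 and for Crabp1. Of the Fabp3 windows of 50 bases 37.3% also occurred in transcripts of other genes, a Fabp3 pseudogene among them, and its count carried decimals in 3 libraries, so its level is uncertain.

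Fabp7, the form of radial glia and astrocytes, was at 1.54, 1.08, 0.541, 1.37 and 1.03 CPM in AAV2-GFP retinas, against 0.841, 0.0912, 0.863, 0.359 and 1.36 CPM in AAV206-GFP retinas. The log2 fold change of -0.63 had a 95% interval of -1.65 to 0.39 (edgeR adjusted p = 0.412). Among the AAV206-GFP retinas, replicates 2 and 4 were lowest for Fabp7 and also lowest for the summed astrocyte markers, at 23.7 and 28.4 CPM against 79.6 to 86.9 CPM. The same 2 retinas were also lowest for the summed oligodendrocyte markers, at 71.8 and 70.8 CPM against 281 to 345 CPM. Among the AAV2-GFP retinas replicate 4 had the lowest astrocyte and oligodendrocyte sums, 38.6 and 74.5 CPM, with the second highest Fabp7. The part of astrocyte or oligodendrocyte content in these levels was not tested.

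The cytosolic retinoic acid carriers were low. Crabp1, which holds retinoic acid and passes it to breakdown, was at 2.89, 3.503, 5.10, 4.84 and 3.67 CPM in AAV2-GFP retinas, against 2.69, 3.19, 3.795, 3.59 and 3.31 CPM in AAV206-GFP retinas. The 95% interval of its log2 fold change of -0.28 was -0.72 to 0.17 (edgeR adjusted p = 0.409). Crabp2, which delivers retinoic acid to its nuclear receptors, was at 1.72, 0.719, 2.32, 0.565 and 1.45 CPM in AAV2-GFP retinas, against 0.421, 1.28, 0.431, 0.269 and 1.53 CPM in AAV206-GFP retinas. Its log2 fold change of -0.78 had a 95% interval of -1.84 to 0.27 (edgeR adjusted p = 0.319). The groups overlapped for both carriers, and Crabp2 had 3 to 30 counts per library. Rbp4, the secreted retinol carrier, had between 0 and 14 counts per library, at 0.410 ± 0.279 and 0.425 ± 0.507 CPM (SD, n = 5; two-sided exact permutation p = 0.952).

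Levels of different genes were compared only per kilobase of the longest annotated coding transcript. With AAV2-GFP, Fabp12 led at 32.6 ± 2.27 CPM per kilobase (SD, n = 5), and no other member reached its range of 30.2 to 35.7. Fabp3 at 14.9, Fabp5 at 11.6 and Fabp4 at 9.65 CPM per kilobase followed, each overlapping the next. Crabp1 was at 4.99, Crabp2 at 1.46, Fabp7 at 1.26, Pmp2 at 0.952 and Rbp4 at 0.353 CPM per kilobase. With AAV206-GFP, Fabp4 was first at 39.4 ± 14.2 CPM per kilobase (SD, n = 5), although its range of 28.1 to 64.1 overlapped that of Fabp12 at 26.3 to 32.2. Pmp2 moved from place 8 to place 5, at 6.07 ± 2.24 CPM per kilobase, and overlapped Crabp1. These places depend on the transcript taken: the annotated coding transcripts of Fabp12 run from 548 to 2512 bases and those of Rbp4 from 410 to 1161 bases.

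Several other genes of the same protein family were nearly silent. Fabp1, Fabp2, Fabp6 and Rbp2, carriers of liver and intestine, had 0 counts in all 10 libraries, which allows up to 0.232 to 0.274 CPM per library. Fabp9 and Rbp7 stayed under 1 CPM.

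Among 20 listed genes that make, sense or remove retinoic acid, 15 were tested. By edgeR 3 were called lower and 0 higher with AAV206-GFP, against 5.3% lower and 5.95% higher over all genes. At an unadjusted p under the threshold there were 6, and DESeq2 called the same 3. The median log2 fold change was -0.09 over the 15 genes and -0.0095 over all tested genes. Cyp26b1, which degrades retinoic acid, was at 6.42, 6.29, 4.33, 6.45 and 4.87 CPM in AAV2-GFP retinas, against 2.27, 2.28, 2.07, 2.15 and 2.54 CPM in AAV206-GFP retinas. The groups did not overlap, and the AAV206-GFP retinas were tightly grouped. The log2 fold change was -1.32 with an SE of 0.19 (edgeR adjusted p = 0.000458), and Cyp26b1 passed in each of its 18 alternative fits. Dhrs3, which reduces retinaldehyde back to retinol, fell from 85.7 ± 3.74 to 68.6 ± 6.88 CPM (SD, n = 5; log2 fold change -0.32, SE 0.07, edgeR adjusted p = 0.00885). Rdh11, a retinal reductase, fell from 66.1 ± 1.99 to 56.4 ± 5.61 CPM (SD, n = 5; edgeR adjusted p = 0.0474), but it passed in 1 of the 10 fits without 1 library. The receptor genes Rara, Rarb, Rarg, Rxra, Rxrb and Rxrg had log2 fold changes between -0.09 and 0.10 and were not called.

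Among 30 listed genes of fatty acid uptake, activation, oxidation and PPAR signalling, 25 were tested, and by edgeR 2 were called higher and 0 lower, against 5.95% higher and 5.3% lower over all genes. An unadjusted p under the threshold was reached by 6, and DESeq2 called the same 2. The median log2 fold change was 0.06. Acsl3, which activates long-chain fatty acids for lipid droplets, rose from 295 ± 15.5 to 369 ± 14.5 CPM (mean ± SD, n = 5). The difference on the log2 scale was 0.32 with an SE of 0.06 (edgeR adjusted p = 0.00189). Its groups did not overlap, and its counts carried decimals in 4 libraries. Angptl4, a secreted inhibitor of lipoprotein lipase and a known PPAR target, was at 0.995, 0.359, 0.696, 0.968 and 0.598 CPM in AAV2-GFP retinas, against 1.43, 2.92, 1.04, 1.70 and 2.63 CPM in AAV206-GFP retinas. The groups did not overlap, although the levels rest on 4 to 32 counts per library. Angptl4 passed the filter on low counts (minimum count 10) through AAV206-GFP, with 12 to 32 counts, against 4 to 12 with AAV2-GFP. It would not have passed on the AAV2-GFP counts alone. Its log2 fold change was 1.41 with an SE of 0.37 (edgeR adjusted p = 0.0248), and it lost its call without AAV2-GFP replicate 3 or 5 and without AAV206-GFP replicate 2 or 5 (edgeR adjusted p from 0.0527 to 0.0767). The PPAR genes themselves were not called: Ppara had a log2 fold change of 0.21 and Ppard of -0.04, and Pparg had at most 2 counts per library.

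**Figure D3:**
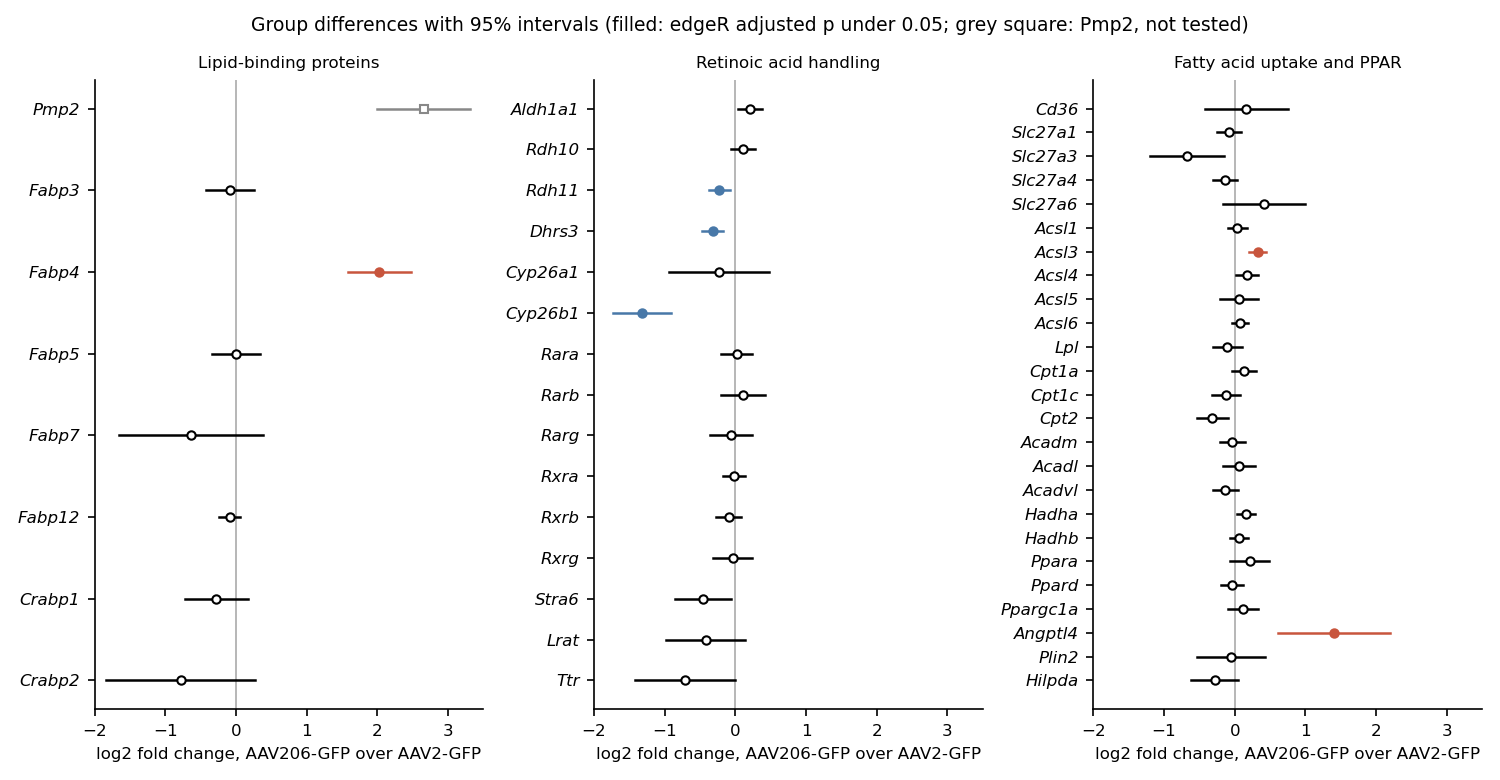
Log2 fold change of AAV206-GFP over AAV2-GFP (horizontal axis) with its 95% interval for the tested lipid-binding proteins, retinoic acid genes and fatty acid genes. Filled points passed the threshold of edgeR adjusted p under 0.05. Pmp2, chosen by its rise, is an open grey square: its interval is a description and its test result is not given. Fabp4 (2.03), Angptl4 (1.41) and Acsl3 (0.32) lie to the right of 0, and Cyp26b1 (-1.32), Dhrs3 (-0.32) and Rdh11 (-0.23) to the left.

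**Figure D4:**
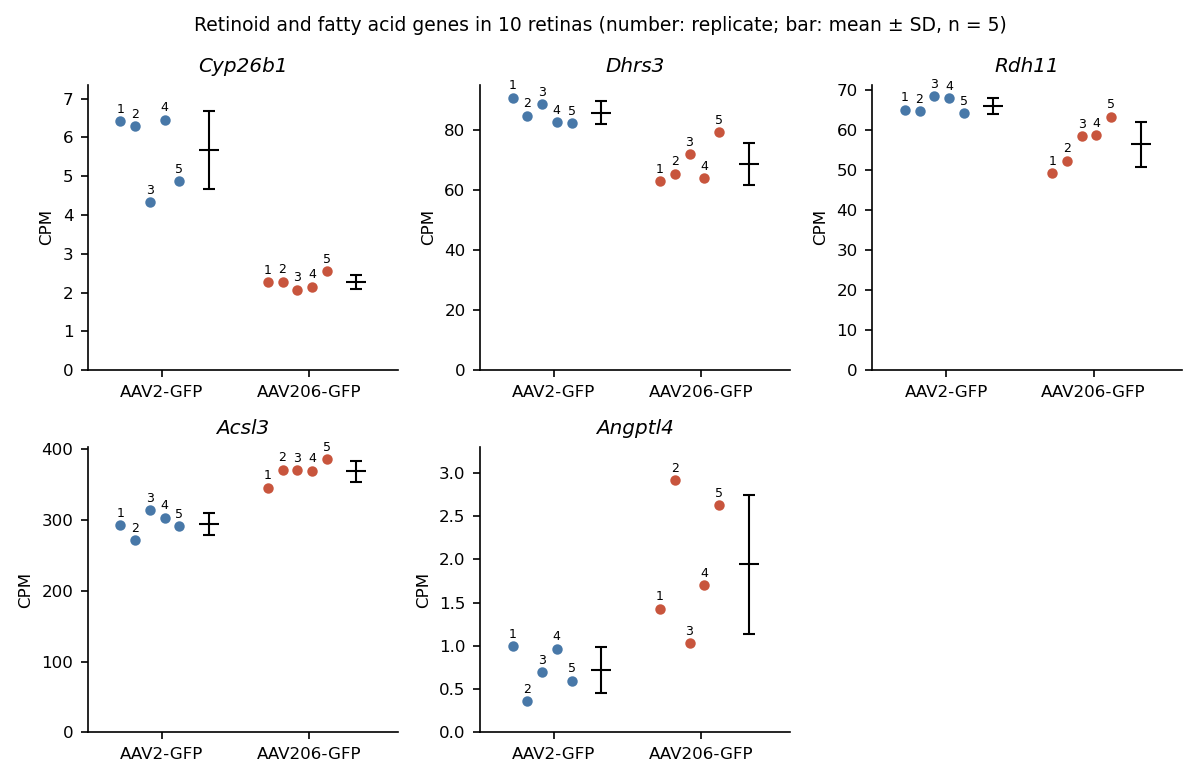
Level in CPM (vertical axis, from 0) of the called retinoid and fatty acid genes in each retina; points carry the replicate number, and the bar is the mean with SD (n = 5). The groups are apart for the 5 called genes, as for Cyp26b1 (2.54 CPM or less against 4.33 or more).

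The summed markers of cell types known to use Pmp2 or Fabp4 overlapped between the groups. Counts of called markers stand beside shares of 5.95% called higher and 5.3% called lower over all tested genes. The summed level of 11 Schwann cell markers was 54.4 to 98.7 CPM in AAV2-GFP retinas, against 60.5 to 70.2 CPM in AAV206-GFP retinas, and 0 of the 6 tested were called by edgeR (1 had an unadjusted p under 0.05). The 8 endothelial markers summed to 290 to 317 CPM in AAV2-GFP retinas, against 288 to 325 CPM in AAV206-GFP retinas. Of these 8 markers, 2 had positive and 6 negative log2 fold changes (median -0.35), and 5 had an unadjusted edgeR p under 0.05. Flt1 was called higher (log2 fold change 0.51) and Cldn5 and Kdr lower (-0.64 and -0.28). Kdr and Flt1, the 2 largest parts of the sum, moved in opposite directions. Kdr went from 154 to 127 CPM and Flt1 from 90.7 to 130 CPM (AAV2-GFP and AAV206-GFP means). The 5 adipocyte markers summed to 0.928 to 2.35 CPM and 1.19 to 2.87 CPM. Among them Adipoq and Plin1 stayed at or under 0.538 CPM in every retina and Lep was at 0. Macrophage and microglia markers summed to 24.1 to 270 CPM in AAV2-GFP retinas, against 19.1 to 28.8 CPM in AAV206-GFP retinas. Of the 7 tested of these, all had negative log2 fold changes (median -1.68), and C1qa and C1qc were called lower. The size of these differences leans on AAV2-GFP replicate 1, at 270 CPM against 24.1 to 50.3 CPM in the other AAV2-GFP retinas. Differences of these markers without that retina are not given here. Oligodendrocyte markers summed to 84.5, 157, 150, 74.5 and 247 CPM in AAV2-GFP replicates 1 to 5 and to 345, 71.8, 281, 70.8 and 345 CPM in AAV206-GFP replicates 1 to 5. Of the 10 tested, 9 had positive log2 fold changes (median 0.68), and Mal was called higher. The retina with the highest Pmp2 of each group, AAV2-GFP replicate 5 and AAV206-GFP replicate 1, had the highest oligodendrocyte sum of its group. AAV206-GFP replicate 5, which shared that sum, was lowest for Pmp2, and replicate 2, with the second lowest sum, was second highest for Pmp2. The part of endothelial, oligodendrocyte and macrophage content in these levels was not tested. Markers of the retinal pigment epithelium summed to 23.9 to 54.5 CPM and 32.1 to 42.2 CPM, and 1 of the 7 tested, Rgr, was called lower.

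Among the other lists, those of erythrocytes and rods did not overlap between the groups, and that of the lens overlapped only through AAV206-GFP replicate 1. The 5 erythrocyte markers summed to 67.8 to 85.8 CPM in AAV2-GFP retinas, against 101 to 319 CPM in AAV206-GFP retinas, without overlap. Of the 5, 4 were called higher, against 5.95% higher and 5.3% lower over all genes. Among the 4, Alas2 passed the filter on low counts through AAV206-GFP, where it was at 1.46 CPM or more. With AAV2-GFP it was at 0.0807 to 1.08 CPM. In AAV206-GFP replicates 1 to 5 the erythrocyte sums were 256, 125.4, 319, 101 and 141 CPM. Replicate 1, with the second highest sum, was highest for Pmp2 and Fabp4, and replicate 3, with the highest sum, was second lowest for Pmp2 and in the middle for Fabp4. The 11 lens markers summed to 13.03 to 36.1 CPM in AAV2-GFP retinas, against 1.79 to 14.9 CPM in AAV206-GFP retinas, and 2 of the 3 tested were called lower. These 2, Cryaa and Crybb2, passed the filter on low counts through AAV2-GFP, at 4.76 and 2.02 CPM or more. With AAV206-GFP their lowest values were 0.0863 and 0 CPM, so their calls rest in part on that filter. The 7 rod markers summed to 52450 to 55950 CPM and 56160 to 61880 CPM, and 2 were called higher. The part of these 3 lists in the differences of Pmp2, Fabp4 and the other called genes was not tested.

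**Figure D5:**
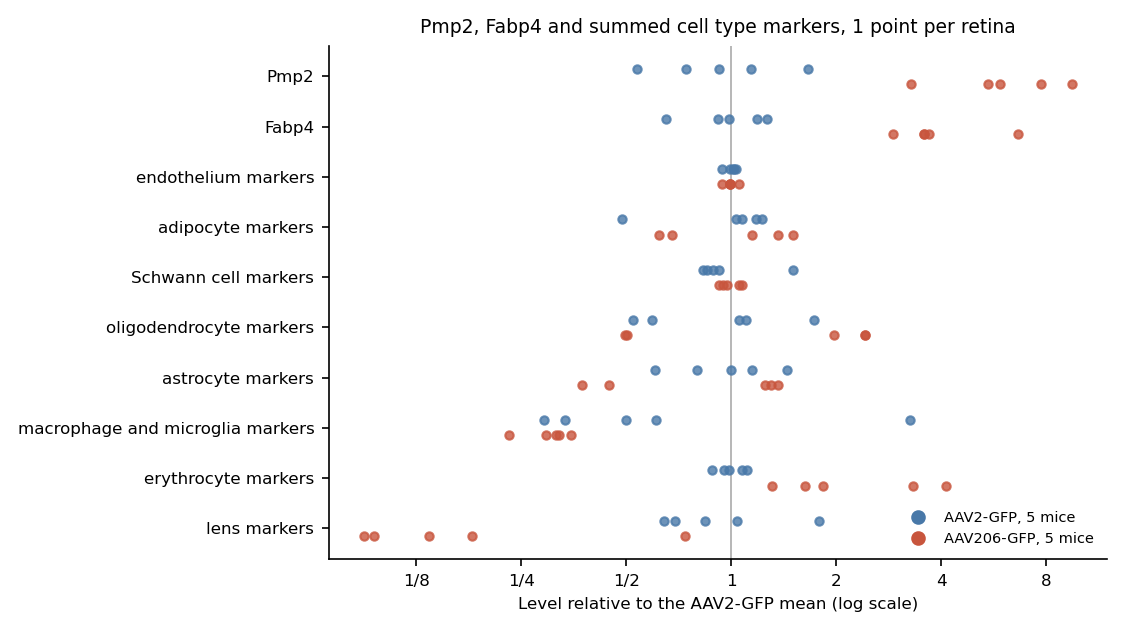
Level of Pmp2, Fabp4 and summed cell type markers in each retina relative to the AAV2-GFP mean (horizontal axis, log scale), with 1 point per retina. All AAV206-GFP points lie to the right of all AAV2-GFP points for Pmp2, Fabp4 and erythrocyte markers. The endothelial sums of both groups overlap within 288 to 325 CPM, although Flt1 was called higher and Cldn5 and Kdr lower within them.

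Genes whose level varied like Pmp2 from retina to retina were ranked by Pearson's r of log2(CPM + 1) after the group means had been removed, over 10 libraries, among 15190 genes averaging 1 CPM or more. This is a description, since the libraries share depth and composition. The largest of 15190 values of r over 10 libraries can also be high by selection alone, and none was tested. The 5 most alike were Adamts18 (r = 0.970), Nhlrc2 (0.955), Gm15706 (0.927), Tmem62 (0.926) and Hunk (0.925). Their log2 fold changes were 0.52, 0.29, 0.13, 0.22 and 0.03, all far under the 2.66 of Pmp2. Fabp4 had r = 0.369 on the same measure, at rank 2453. In AAV206-GFP both genes were highest in replicate 1 and lowest in replicate 5, while in AAV2-GFP replicate 5 was highest for Pmp2 and lowest for Fabp4.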

How the data were processed

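Retinas of 10 mice were profiled by bulk RNA sequencing. The deposited values are expected counts per Ensembl gene, not scaled between libraries. STAR 2.7.10b, RSEM 1.3.1 and mm10 are named in the submitters' processing notes. The annotation behind the counts is not given in the sources used here. Libraries were assigned to groups by title. All 10 were used.

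Counts were rounded to whole numbers, since 5.95% of the values carried decimals. Genes were kept by filterByExpr (minimum count 10), scaled by trimmed mean of M values (TMM) factors and tested with the quasi-likelihood F test of edgeR 4.0.16 in R 4.3.3, without covariates. Benjamini-Hochberg adjustment ran over all 15539 tested genes, with a threshold of 0.05. Each standard error (SE) was derived as the size of the log2 fold change over the root of its F statistic, and 95% intervals use the test's degrees of freedom. The procedure was tested on simulated counts. Names, positions and transcript lengths came from GENCODE M21 (GRCm38), which named 98.4% of the tested genes.

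The members and gene lists were chosen with earlier results of these data known. Named are all members, up to 6 called genes per pathway list by smallest p, and the 5 genes most like Pmp2. Other listed genes and single markers named with values were chosen after values were seen. The 500 kb window around Pmp2 and the sequence comparisons were chosen after values were seen. Some listed genes are not reported here. Alternatives covered scaling, filters, DESeq2 1.42.0, limma-voom (limma 3.58.1), the replicate number as a block, and each library left out in turn.

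Library totals ran from 10989843 to 12752604 counts. A floor of 3 counts corresponds to 0.232 to 0.274 CPM and covers counting error only, since PCR copies are not independent molecules. Pairs of libraries within a group differed by more than sampling noise (chi-square per degree of freedom 3.69 to 22.3), so none was treated as a duplicate.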

Additional observations from a re-analysis of the deposited data

Results flagged for a closer look

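Each entry here is a group of 5 retinas in which 1 lay far from the rest, judged by how far it stood from its closest neighbour as a share of the group's range. Of 72 group results examined, 7 passed the limit, where chance would give 3.6. AAV206-GFP replicate 1 was high for Fabp4, at 57.5 CPM against 25.2 to 32.02 CPM in the other 4 (ratio 0.788). The same retina was low for Fabp12, at 66.0 CPM against 79.4 to 80.8 CPM (ratio 0.902), and high for the summed lens markers, at 14.9 CPM against 1.79 to 3.65 CPM (ratio 0.859). AAV206-GFP replicate 4 was low for Müller glia markers, at 3536 CPM against 4087 to 4249 CPM (ratio 0.773). In AAV2-GFP replicate 1 the Schwann cell markers were high, at 98.7 CPM against 54.4 to 60.4 CPM (ratio 0.865), as were the macrophage and microglia markers, at 270 CPM against 24.1 to 50.3 CPM (ratio 0.893). The adipocyte markers were low in AAV2-GFP replicate 3, at 0.928 CPM against 1.98 to 2.35 CPM (ratio 0.736). Retn was the largest part of this sum.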

How the results depend on the processing

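Among the members besides Pmp2, the count of 1 called gene, Fabp4, was the same in all 18 alternatives. The log2 fold change of Fabp4 lay between 1.78 and 2.13 in all of them. That of Pmp2, which was chosen by its rise, lay between 2.47 and 2.91, given as a description. The replicate block lowered the number of genes called from 1747 to 1085 and the number of listed family and pathway genes from 7 to 4, with Angptl4, Rdh11 and Tpd52 lost. The replicate numbers did not pair the libraries: same-numbered libraries correlated at -0.05 to 0.04 in their deviations from the group means, and no AAV2-GFP library correlated best with its own number. Leaving out each library in turn gave 991 to 1912 genes called, with the lowest count without AAV2-GFP replicate 4, and also 1074 without AAV206-GFP replicate 2 and 1056 without AAV206-GFP replicate 4. For the listed genes it gave 4 to 7, with 4 without AAV2-GFP replicate 3, 4 or 5 or AAV206-GFP replicate 2. Calls were gained for Cpt2 without AAV2-GFP replicate 1, Ttr without AAV2-GFP replicate 2 and Acadvl without AAV206-GFP replicate 1. The cause of these shifts was not tested, beyond the fewer libraries. The sign of the Fabp5 difference turned under upper-quartile scaling (0.0094), DESeq2 size factors (0.0017), limma-voom (0.0148) and the block (0.0242), and ran from -0.11 to 0.10 without single libraries. That of Fabp3 ran from -0.17 to 0.03 and turned without AAV2-GFP replicate 3 (0.0332) or 4 (0.0184). Rdh11 and Tpd52 also lost their calls under upper-quartile scaling and without a filter on low counts. Fabp7, Crabp2 and Rbp4 had 0 to 30 counts per library, and the share of counting error in their spread was not tested.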

Other observations

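Stra6l, a receptor-like gene related to the retinol transporter Stra6, had 0 counts in all 5 AAV2-GFP libraries and 5, 6, 1, 2 and 2 counts in AAV206-GFP replicates 1 to 5. It was below the filter, and 3 of these values are under the floor of 3 counts. Stra6 itself was at 5.68 ± 0.395 and 4.13 ± 1.00 CPM (SD, n = 5), a difference of -0.46 on the log2 scale (edgeR adjusted p = 0.117). Ttr, the blood partner of Rbp4, had a log2 fold change of -0.72 that did not pass (edgeR adjusted p = 0.171).

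Promoter windows of 300 bases around the start of 4 members were found in the RefSeq table of GRCm38.p6: Fabp3, Fabp7, Crabp1 and Rbp4, with 5 start sites in all. Both strands were searched. TATAAA was found at 1 Rbp4 start and in 13.6% of 32851 promoters, AGGTCA at Fabp7 and in 16.3%, and GGGCGG at Crabp1 and 1 Rbp4 start and in 35.7%. ACAAAG was in none of the 5 and in 18.7% of all. Direct repeats of AGGTCA spaced by 1, 2 or 5 bases were in none of the 5 and in at most 0.0396% of all.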
